A study of Mus musculus with 24 samples.

Results

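Markers of the endothelium, the cells that line blood vessels, were described in livers of lipodystrophic and control mice. The 10 genes, *Stab2*, *Lyve1*, *Clec4g*, *Fcgr2b*, *Kdr*, *Pecam1*, *Cdh5*, *Vwf*, *Plvap*, and *Cd34*, were chosen by name as known markers of sinusoidal and other vascular endothelium, and are 10 of the 23972 genes with counts. All 10 were counted in every library. RNA-Seq of liver was available for 24 libraries of female mice, with 7 vehicle-treated controls, 3 FGF21-treated controls, 6 vehicle-treated Lmna ADKO mice, and 8 FGF21-treated Lmna ADKO mice. All mice carried Lmna fl/fl alleles with *loxP* sites around exons 10 and 11. Controls lacked *Adipoq*-Cre, and Lmna ADKO mice carried it, so that *Lmna* was deleted in adipocytes and not by design in liver cells. Mice were 12 to 14 weeks old at the start, were kept at 22°C on a diet with 60% of energy from fat, received vehicle or an AAV8 vector after 4 weeks of diet, and were euthanized 8 weeks later. In the labels, treated mice are named a rescue, and this was taken to mean the FGF21 vector. Counts on *Fgf21* did not set these groups apart, at means of 4.78 (FGF21) and 4.01 (vehicle) counts per 1000000 reads (CPM) among controls, and of 5.36 and 7.99 CPM among Lmna ADKO mice.

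Liver sinusoids are capillaries with open pores and little basement membrane. Their endothelium clears waste from blood through scavenger and Fc receptors, among them stabilin 2, the lectin encoded by *Clec4g*, and the inhibitory IgG receptor encoded by *Fcgr2b*. Continuous endothelium of larger vessels and of most other organs carries von Willebrand factor and CD34, which healthy sinusoids hold at low levels, whereas VEGF receptor 2 (*Kdr*), PECAM1, and VE-cadherin (*Cdh5*) are shared by most endothelium. In injured liver, sinusoids can lose pores and gain features of continuous capillaries, a process called capillarization.

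Libraries held 19863304 to 21510054 reads on genes. Values are CPM after TMM scaling, a correction for composition between libraries. *Lmna* was higher in Lmna ADKO livers, at 26.7 ± 2.57 CPM (SD, n = 6) against 18.6 ± 2.47 CPM (SD, n = 7) without Cre, both with vehicle. These groups did not overlap (23.6 to 31.0 CPM against 15.7 to 22.1 CPM), as for 7.95% of all genes. By design, *Adipoq*-Cre is not meant to be expressed in liver cells. In 3 libraries, control vehicle library 3, control FGF21 library 3, and Lmna ADKO FGF21 library 7, log2 CPM fell with exonic gene length (slopes of -0.15, -0.29, and -0.33 per log2 of length, against -0.11 to 0.13 in the other 21). Labels give a number per library, taken here as an animal number. These numbers had 3 digits in 6 of 7 vehicle-treated controls and 1 of 6 vehicle-treated Lmna ADKO mice. The rest of both groups had 4 digits, so that this number series and genotype can be told apart only in part. Of the FGF21-treated mice, 3 of 3 controls and 4 of 8 Lmna ADKO mice had 4 digits.

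RefSeq promoter windows on GRCm38.p6 matched 5 of the 10 genes, *Stab2*, *Clec4g*, *Fcgr2b*, *Kdr*, and *Cd34*. The 250 bases before the start site are shown for *Clec4g* and *Fcgr2b*, whose levels had the highest correlation of all pairs of the 10 genes, and for *Cd34*, which was higher in vehicle-treated Lmna ADKO livers. Capitals mark matches to AGGAAG, a core that ETS factors can bind, in either orientation, with overlapping matches joined.
Clec4g, chr8:3720652-3720901, minus strand: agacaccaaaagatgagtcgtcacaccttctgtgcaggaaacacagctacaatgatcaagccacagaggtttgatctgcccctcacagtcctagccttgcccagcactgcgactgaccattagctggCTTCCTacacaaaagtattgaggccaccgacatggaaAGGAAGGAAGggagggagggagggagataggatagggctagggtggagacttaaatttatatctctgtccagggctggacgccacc
Fcgr2b, chr1:170976072-170976321, minus strand: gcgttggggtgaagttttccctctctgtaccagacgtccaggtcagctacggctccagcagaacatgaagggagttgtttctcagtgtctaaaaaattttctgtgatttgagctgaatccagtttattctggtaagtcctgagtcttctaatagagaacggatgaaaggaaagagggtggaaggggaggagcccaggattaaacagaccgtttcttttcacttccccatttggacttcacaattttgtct
Cd34, chr1:194938571-194938820, plus strand: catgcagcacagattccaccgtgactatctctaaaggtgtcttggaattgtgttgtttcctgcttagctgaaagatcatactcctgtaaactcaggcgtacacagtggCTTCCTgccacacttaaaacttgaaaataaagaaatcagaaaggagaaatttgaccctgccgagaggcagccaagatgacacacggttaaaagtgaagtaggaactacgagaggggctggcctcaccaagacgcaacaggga
The core stood 3 times in the window of *Clec4g* and 1 time in that of *Cd34*, and these letters were not in the window of *Fcgr2b*. It was found in 3 of the 5 matched windows and in 29.5% of all 32851 windows of this length. AGATAA, a core for GATA factors, was found in either orientation in 0 of 5 and in 9.99% of all windows. Of the other motifs searched on both strands, CCACCC for KLF factors was in 3 of 5 and 28.1% of all, ACAATG for SOX factors in 1 of 5 and 10.7%, and the TATA box TATAAA in 1 of 5 and 12.4%. A match is a description of letters and not of binding.

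To compare genes, levels were divided by exonic length. In vehicle-treated controls, *Plvap*, a component of the diaphragms of endothelial pores, had 33.9 ± 5.81 CPM per kb (SD, n = 7), and *Clec4g* had 29.2 ± 5.97 CPM per kb. The ranges of these 2 over libraries overlapped, and both lay above *Fcgr2b* (11.6 ± 1.69 CPM per kb), *Stab2* (8.47 ± 0.747), and *Cdh5* (6.42 ± 0.854), whose neighbours in this order overlapped. *Kdr* (4.44 ± 0.441 CPM per kb) and *Pecam1* (4.17 ± 0.427) overlapped each other and lay below *Cdh5*. *Lyve1* followed at 2.07 ± 0.700 CPM per kb, apart from the genes above and below it. *Vwf* (0.457 ± 0.0610 CPM per kb) and *Cd34* (0.208 ± 0.104) were the lowest and overlapped. In vehicle-treated Lmna ADKO livers, *Lyve1* stood at place 4, at 7.92 ± 2.35 CPM per kb (SD, n = 6), with a range that overlapped those of *Fcgr2b* above it and *Cdh5* below it. *Vwf* (0.733 ± 0.336 CPM per kb) and *Cd34* (0.429 ± 0.0737) were again the lowest. With the longest transcript as the length, *Clec4g* came before *Plvap* in vehicle-treated controls, at 49.8 CPM per kb against 33.9.

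**Figure D1:**
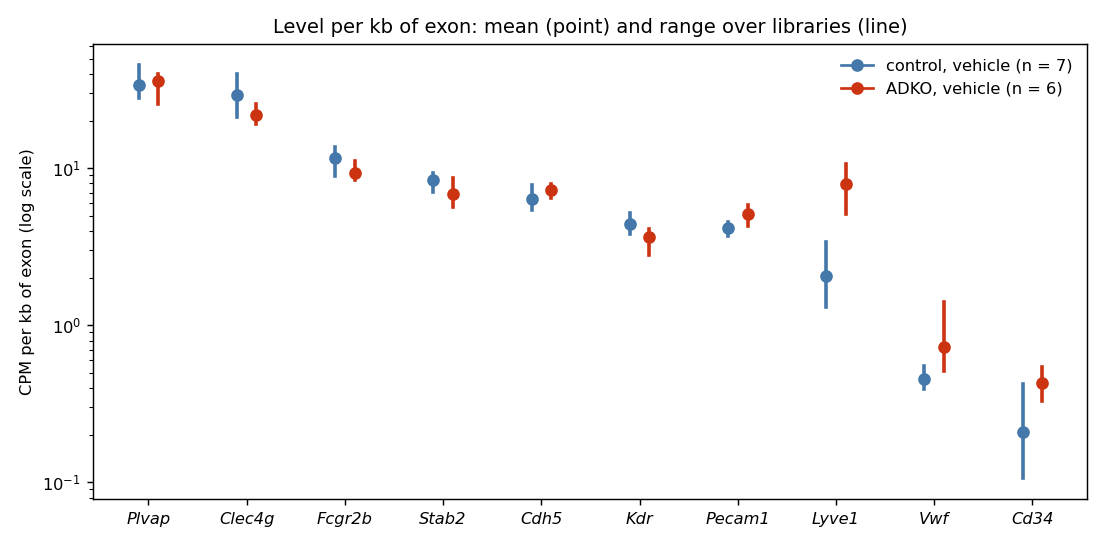
Level of each gene in CPM per kb of exon, on a log axis, with the mean (point) and the range over libraries (line) in vehicle-treated control and Lmna ADKO livers. *Lyve1* moved from 2.07 to 7.92 CPM per kb, and *Vwf* and *Cd34* stayed the 2 lowest genes in both groups.

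The first question was how endothelial genes differed between vehicle-treated Lmna ADKO and control livers. *Lyve1*, *Vwf*, and *Cd34* were higher in Lmna ADKO livers, by 3.82, 1.60, and 2.05 times. A gene was called where its p, adjusted by the Benjamini-Hochberg method across all 23972 genes, was under 0.05 and its fold over 1.5. This was so for 3 of 10, all higher, against 8.48% of all genes (5.12% higher and 3.36% lower). All genes include those with as few as 2 reads in total. The expression filter of edgeR (filterByExpr) kept 14699 of all genes, and all 10 described here. Here and below, the share called among genes counted as well as these 10 was not computed. With the number series as a covariate, 1 of 10 was called, *Lyve1*. With 10 genes, these counts are read as a description. By the adjusted p alone, 5 of 10 passed, against 15.1% of all genes, with *Pecam1* higher and *Stab2* lower as the others. The median log2 fold change was 0.13 over the 10 genes and 0.0027 over all genes. As whole liver was measured, fewer cells of a type and less RNA per cell cannot be told apart.

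*Lyve1* (ENSMUSG00000030787, chromosome 7, 110850607 to 110863239 of GRCm38, minus strand) encodes a hyaluronan receptor of lymphatic vessels and of liver sinusoids. The 7 vehicle-treated controls ranged from 3.81 CPM over a median of 5.46 to 9.90 CPM. The 6 vehicle-treated Lmna ADKO livers ranged from 14.9 over a median of 24.1 to 31.0 CPM. All Lmna ADKO libraries lay above all controls, and *Lyve1* was the only gene of the 10 whose groups did not overlap, as was the case for 7.95% of all genes. The log2 fold change was 1.93 (standard error 0.206, 95% CI 1.51 to 2.36, adjusted p = 5.82e-07 from edgeR). Within libraries, reads on *Lyve1* per 100 reads on *Stab2* were 8.39 ± 3.71 (SD, n = 7, range 4.97 to 16.0) in controls. In Lmna ADKO livers they were 38.7 ± 12.6 (SD, n = 6, range 26.7 to 59.1). *Stab2* itself was lower in Lmna ADKO livers (log2 fold change -0.30), which adds to the rise of this ratio. The single vehicle-treated control with a 4-digit animal number had 5.46 CPM and the single vehicle-treated Lmna ADKO mouse with a 3-digit number had 22.3 CPM, each within the range of its genotype.

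The other cell types that can carry *Lyve1* were described beside it. Of the 4 lymphatic markers with a single match (*Pdpn*, *Prox1*, *Flt4*, and *Mmrn1*), 0 were called by edgeR or DESeq2, and 1 had an unadjusted p under 0.05 in edgeR. This was *Flt4*, whose log2 fold change of 0.41 passed the adjusted p (0.00646 from edgeR) but not the fold. The list summed to 72.7 to 123 CPM over vehicle-treated controls and 80.1 to 110 CPM over Lmna ADKO livers, most of it from *Prox1* (means of 69.2 and 57.0 CPM), which hepatocytes also carry. No marker of the list was at 0 in a group. *Pdpn*, which defines lymphatic endothelium, had a mean of 0.0963 CPM in controls and 0.169 CPM in Lmna ADKO livers, near the limit of detection, and *Mmrn1* had 0.520 and 0.592 CPM. The 8 Kupffer cell markers, for the resident macrophages of the liver, summed to 669 to 960 CPM in controls and 464 to 811 CPM in Lmna ADKO livers, with 0 of 8 called by edgeR or DESeq2 and 3 of 8 with an unadjusted p under 0.05 in edgeR. All 8 had a log2 fold change under 0, with a median of -0.34, in the opposite direction to *Lyve1*. The part of either cell type in the level of *Lyve1* was not tested.

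The other 3 sinusoidal receptors were not called. *Stab2* (ENSMUSG00000035459, chromosome 10, 86841198 to 87008025, minus strand), the scavenger receptor for hyaluronan, ranged from 61.9 over a median of 76.7 to 81.6 CPM in vehicle-treated controls and from 49.6 over 57.8 to 76.0 CPM in Lmna ADKO livers. All 6 values of Lmna ADKO livers were under the control median, and 4 were under every control. The genotypes differed by a log2 fold change of -0.30 (standard error 0.103, 95% CI -0.51 to -0.09, adjusted p = 0.0482 from edgeR), and with the number series as a covariate the adjusted p was 0.217, the highest of all settings run (lowest 0.00964).

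*Clec4g* (ENSMUSG00000074491, chromosome 8, 3707064 to 3720651, minus strand), a lectin of sinusoidal endothelium, ranged from 52.3 over a median of 67.7 to 98.3 CPM in controls and from 46.8 over 52.8 to 63.2 CPM in Lmna ADKO livers. Each of the 6 Lmna ADKO values was under the control median, and the groups overlapped. Its log2 fold change was -0.42 (95% CI -0.80 to -0.04, adjusted p = 0.134 from edgeR). *Fcgr2b* (ENSMUSG00000026656, chromosome 1, 170958617 to 170976547, minus strand) ranged from 51.9 over a median of 68.1 to 78.8 CPM in controls and from 48.7 over 52.4 to 64.1 CPM in Lmna ADKO livers. Here too the 6 Lmna ADKO values were under the control median, 3 of them under every control, with a log2 fold change of -0.30 (95% CI -0.54 to -0.06, adjusted p = 0.0898 from edgeR). Of the 50-base words in its transcripts, 4.38% also occur in another gene, 2.92% in *Fcgr3*, so part of its count depends on how shared reads were assigned. *Fcgr2b* is also a gene of B cells and macrophages. The 5 B cell markers summed to 7.36 to 12 CPM in controls and 4.27 to 11.2 CPM in Lmna ADKO livers, with 0 of 5 called by edgeR or DESeq2, 0 of 5 with an unadjusted p under 0.05, and all 5 log2 fold changes under 0. The part of these cells in the level of *Fcgr2b* was not tested.

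**Figure D2:**
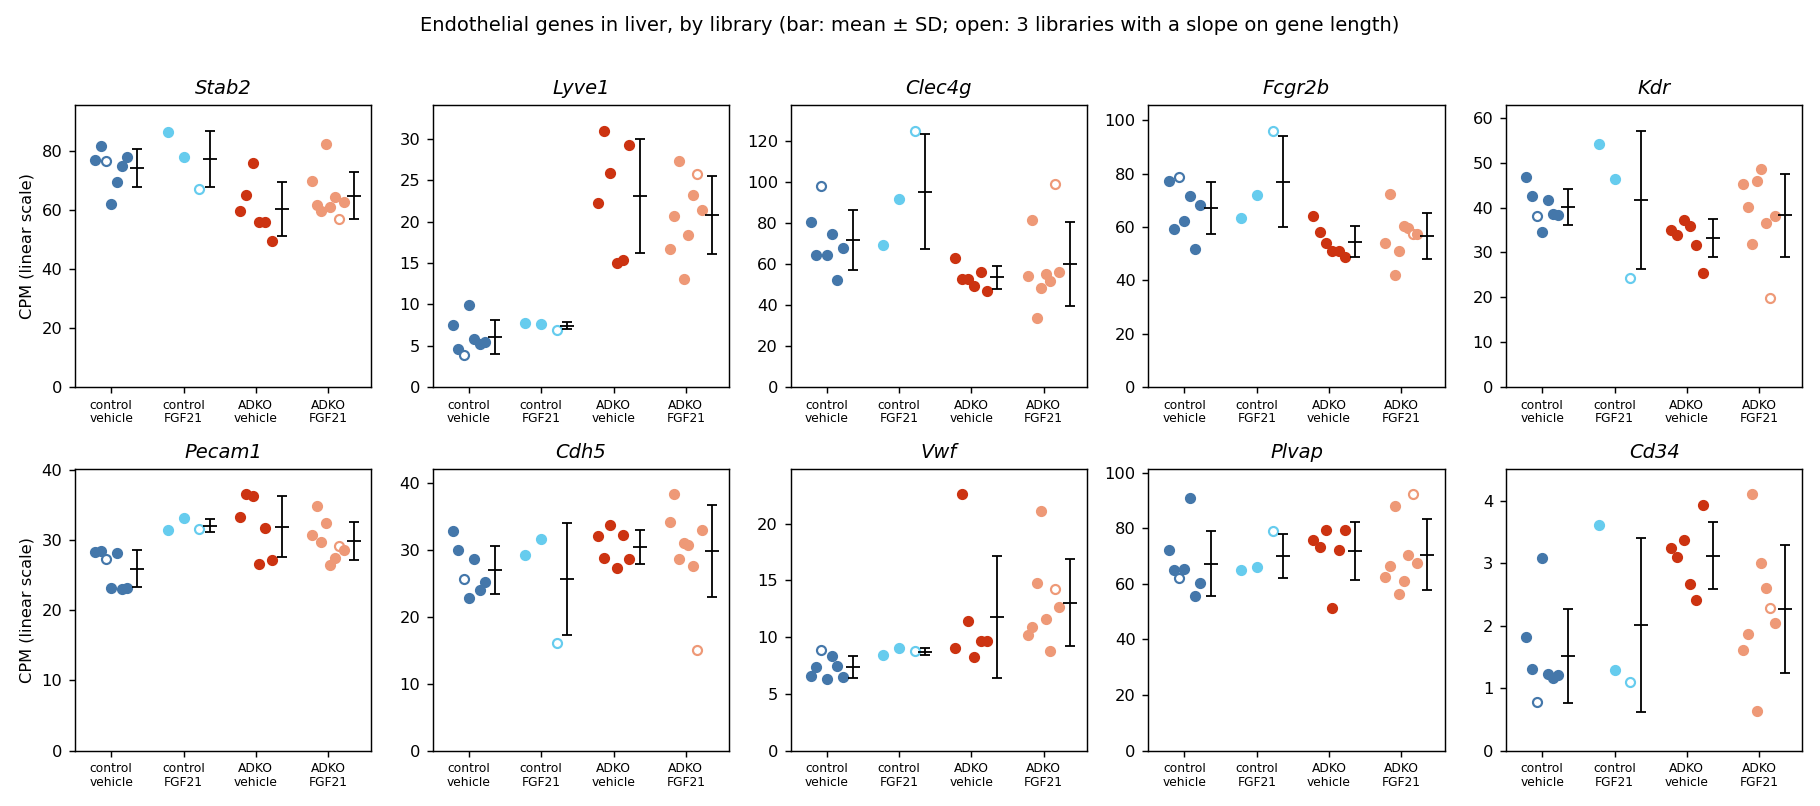
CPM of the 10 genes on a linear axis, with a point for each library in the 4 groups and a bar for the mean ± SD. For *Lyve1*, Lmna ADKO points of either treatment sat above every control of that treatment, and open points mark the 3 libraries in which levels fell with gene length, where *Clec4g* was high and *Kdr* and *Cdh5* were mostly low.

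The pan-endothelial genes did not move in 1 direction. *Pecam1* (ENSMUSG00000020717, chromosome 11, 106654217 to 106750628, minus strand), an adhesion molecule at cell junctions, ranged from 23.1 over a median of 27.3 to 28.5 CPM in vehicle-treated controls and from 26.6 over 32.5 to 36.5 CPM in Lmna ADKO livers. It was above all controls in 4 of 6 Lmna ADKO libraries and below the control median in the other 2. Its log2 fold change was 0.30 (standard error 0.0928, 95% CI 0.11 to 0.49, adjusted p = 0.0268 from edgeR), under the fold limit of 1.5 for a call, and the adjusted p ranged from 0.00615 to 0.0898 over the settings run.

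*Kdr* (ENSMUSG00000062960, chromosome 5, 75932827 to 75978458, minus strand), the main signalling receptor for VEGF, averaged 40.1 ± 3.98 CPM (SD) over the 7 controls and 33.2 ± 4.22 CPM over the 6 Lmna ADKO livers. As for the sinusoidal receptors other than *Lyve1*, 0 of 6 Lmna ADKO values lay above the control median, and 3 lay below all controls. The log2 fold change of *Kdr* was -0.27 (95% CI -0.61 to 0.06, adjusted p = 0.290 from edgeR). *Cdh5* (ENSMUSG00000031871, chromosome 8, 104101625 to 104144511, plus strand), the cadherin of endothelial junctions, averaged 27.0 ± 3.59 and 30.4 ± 2.54 CPM, and its genotypes differed by 0.17 on the log2 scale (95% CI -0.14 to 0.48, adjusted p = 0.492 from edgeR).

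Of the other 3 vascular genes, *Vwf* and *Cd34* were called and *Plvap* was not. *Vwf* (ENSMUSG00000001930, chromosome 6, 125546774 to 125686679, plus strand), which encodes a clotting factor stored in endothelium, ranged from 6.31 over a median of 7.40 to 8.90 CPM in vehicle-treated controls and from 8.23 over 9.66 to 22.6 CPM in Lmna ADKO livers. Above all controls lay 5 of the 6 Lmna ADKO libraries, and the highest of them, library 2, stood far from the other 5 (8.23 to 11.4 CPM). In all 6, *Vwf* differed by a log2 fold change of 0.68 (standard error 0.200, 95% CI 0.27 to 1.09, adjusted p = 0.0203 from edgeR). Without library 2 it was 0.39 and was no longer called (adjusted p = 0.105 from edgeR), and with the number series as a covariate it was 0.76 and not called (adjusted p = 0.0542 from edgeR). The adjusted p over all settings ranged from 0.00811 to 0.105. Platelets and their precursors carry *Vwf* too. Of 5 platelet markers, 0 were called by edgeR or DESeq2 and 1 had an unadjusted p under 0.05. Their log2 fold changes ran from -0.98 to 0.53, with 2 of 5 above 0. These markers summed to 3.64 to 5.72 CPM over controls and 3.75 to 4.54 CPM over Lmna ADKO livers. The part of platelets in the level of *Vwf* was not tested.

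*Cd34* (ENSMUSG00000016494, chromosome 1, 194938819 to 194961279, plus strand), a sialomucin of capillary endothelium and of blood progenitors, was the lowest of the 10 genes, with 13 to 99 reads per library over all groups. Vehicle-treated controls ranged from 0.774 over a median of 1.23 to 3.08 CPM and Lmna ADKO livers from 2.41 over 3.18 to 3.93 CPM. All 6 Lmna ADKO libraries lay above the control median and 4 above all controls, with 1 control at 3.08 CPM inside their range. For *Cd34* the log2 fold change was 1.04 (standard error 0.322, 95% CI 0.37 to 1.70, adjusted p = 0.0288 from edgeR). The call was lost in 7 of 13 fits that left out 1 library, with log2 fold changes of 0.93 to 1.31 over all 13. It was also lost without the 3 libraries with a slope on gene length (0.93, adjusted p = 0.0586 from edgeR) and with the number series as a covariate (0.99, adjusted p = 0.122 from edgeR), and the adjusted p over all settings ranged from 0.00244 to 0.122. *Plvap* (ENSMUSG00000034845, chromosome 8, 71497765 to 71511752, minus strand) ranged from 55.6 over a median of 64.8 to 90.8 CPM in controls and from 51.4 over 74.4 to 79.4 CPM in Lmna ADKO livers. Its groups overlapped, and they differed by 0.09 on the log2 scale (95% CI -0.16 to 0.35, adjusted p = 0.688 from edgeR).

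Markers of other cells of the vessel wall and portal tract were read against the same 8.48% of all genes called with vehicle. Of 8 stellate cell and fibroblast markers, *Lrat* and *Col3a1* were called, with log2 fold changes of 0.74 and 1.08, and the list summed to 259 to 380 CPM in vehicle-treated controls and 327 to 502 CPM in Lmna ADKO livers. The 5 cholangiocyte markers, for bile duct cells, summed to 27.0 to 51.2 CPM and 85.8 to 196 CPM, with *Spp1* called (log2 fold change 1.83). A sum is weighted to its highest genes. The 5 log2 fold changes ran from 0.46 to the 1.83 of *Spp1*, with a median of 0.71, and 1 of 5 was called. The part of *Spp1* in the sum was not tested. Between FGF21-treated genotypes, edgeR called 0 of both lists, against 2.88% of all genes, with an unadjusted p under 0.05 for 4 of 8 and 2 of 5. DESeq2 called 0 of 8 and 1 of 5. Median log2 fold changes were 0.35 for stellate cell and fibroblast markers and 0.44 for cholangiocyte markers, against 0.38 and 0.71 with vehicle. *Alb*, for albumin made by hepatocytes, averaged 86150 ± 16236 CPM (SD) over the 7 controls and 68478 ± 11802 CPM over the 6 Lmna ADKO livers, with an adjusted p of 0.196 from edgeR. The part of these in the levels of *Lyve1*, *Vwf*, and *Cd34* was not tested.

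The same comparison was made between FGF21-treated mice. *Lyve1* was called, as 1 of the 10 genes, against 2.88% of all genes (1.61% higher and 1.26% lower). By the adjusted p alone it was again 1 of 10, against 3.85% of all genes. The 3 control libraries had 7.75, 7.59, and 6.93 CPM, and the 8 Lmna ADKO libraries ranged from 13.0 over a median of 21 to 27.4 CPM. The groups did not overlap, as for 5.35% of all genes. In this comparison the log2 fold change was 1.49 (standard error 0.269, 95% CI 0.93 to 2.04, adjusted p = 0.00221 from edgeR), a fold of 2.80. Among mice with 4-digit animal numbers alone it was 1.57 (adjusted p = 0.00357 from edgeR), and reads on *Lyve1* per 100 reads on *Stab2* were 9.67 ± 0.668 (SD, n = 3) and 33.1 ± 10.1 (SD, n = 8). The summed level of the 8 Kupffer cell markers had a median of 909 CPM over these controls and of 663 CPM over these Lmna ADKO livers, and 7 of 8 had a log2 fold change under 0.

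*Clec4g* had 69.6, 91.7, and 125 CPM in the 3 FGF21-treated controls and 33.6 to 99.3 CPM, with a median of 54.8, in the 8 Lmna ADKO livers. Of these 8, 6 lay below all controls, and the highest was library 7, 1 of those with a slope on gene length. The genotypes differed by a log2 fold change of -0.67 (95% CI -1.12 to -0.23, adjusted p = 0.0831 from edgeR), not called here but called by DESeq2 (-0.69, adjusted p = 0.0382) and with the slope as a covariate (-0.59, adjusted p = 0.00136 from edgeR). Of the fits that left out 1 library, 3 also called it. These were without Lmna ADKO library 2 (-0.75, adjusted p = 0.0480), without Lmna ADKO library 7 (-0.82, adjusted p = 0.00921), and without control library 1 (-0.85, adjusted p = 0.0446), all from edgeR. Without control library 3, it was -0.43 (adjusted p = 0.479 from edgeR, the highest of all settings run). *Fcgr2b* had 63.2, 71.8, and 96.0 CPM in controls and 41.9 to 72.4 CPM, with a median of 57.2, in Lmna ADKO livers, 7 of 8 below all controls. Its log2 fold change was -0.44 (95% CI -0.73 to -0.15, adjusted p = 0.0760 from edgeR). *Stab2* had a log2 fold change of -0.25 (95% CI -0.50 to 0.00084, adjusted p = 0.297 from edgeR).

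*Vwf* had 8.41, 9.04, and 8.73 CPM in the FGF21-treated controls and 8.80 to 21.1 CPM, with a median of 12.1, in the Lmna ADKO livers. Of the 8 Lmna ADKO libraries, 7 lay above all controls, and the log2 fold change of 0.58 did not pass (95% CI 0.06 to 1.09, adjusted p = 0.227 from edgeR). *Cd34* had 3.61, 1.3, and 1.11 CPM in controls and 0.629 to 4.11 CPM in Lmna ADKO livers, with full overlap and a log2 fold change of 0.17 (95% CI -0.65 to 0.99, adjusted p = 0.877 from edgeR). The 95% CI was -0.33 to 0.13 for *Pecam1*, -0.53 to 0.28 for *Kdr*, -0.17 to 0.60 for *Cdh5*, and -0.30 to 0.32 for *Plvap*. The interaction of genotype and treatment tests whether these differences between genotypes changed with FGF21. None of the 10 genes passed it in edgeR or DESeq2, against 0.00417% of all genes in edgeR, and 1 of 10, *Pecam1*, had an unadjusted p under 0.05 (log2 difference -0.40, 95% CI -0.70 to -0.10, adjusted p = 0.984). For *Cd34* the interaction was -0.87 (95% CI -1.91 to 0.18, adjusted p = 0.984 from edgeR) and for *Vwf* it was -0.10 (95% CI -0.75 to 0.55, adjusted p = 1 from edgeR), so that a difference between treatments was not shown for these 2 genes, called with vehicle only. For *Lyve1*, called in both, it was -0.44 (95% CI -1.11 to 0.22, adjusted p = 0.995 from edgeR).

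**Figure D3:**
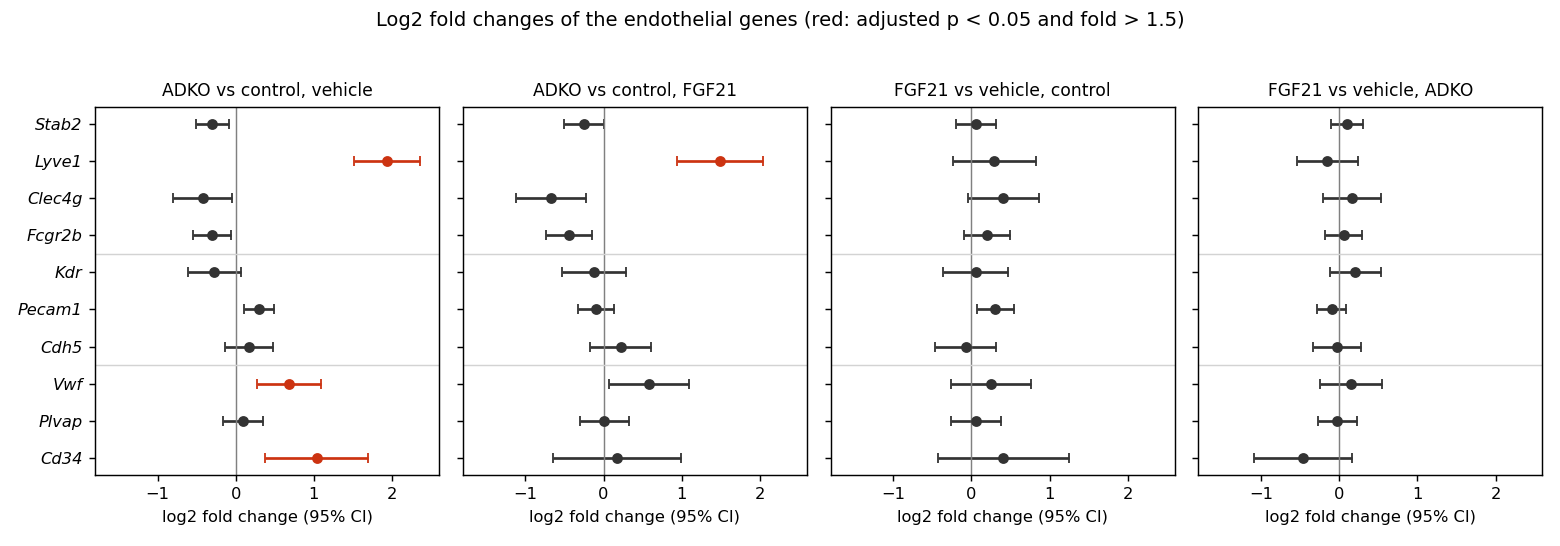
Log2 fold change and 95% CI from edgeR for the 10 genes in 4 comparisons, with called genes in red and lines between sinusoidal receptors, pan-endothelial genes, and other vascular genes. *Lyve1* was called between genotypes with vehicle (1.93) and with FGF21 (1.49), and no gene was called between FGF21 and vehicle.

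FGF21-treated and vehicle-treated mice were then compared within each genotype. Vehicle held no virus, so that the vector and FGF21 cannot be told apart. Numbers had 4 digits in 3 of 3 FGF21-treated controls and 1 of 7 vehicle-treated controls. In controls, the number series and treatment can thus be told apart only in part. With the series as a covariate, edgeR called 0 of all genes in controls, against 13 without it. In controls, 0 of 10 genes were called by edgeR or DESeq2, against 0.0542% of all genes in edgeR, and 1 of 10 had an unadjusted p under 0.05. This was *Pecam1*, with 31.5, 33.1, and 31.6 CPM in the 3 FGF21-treated livers against 23.1 to 28.5 CPM in the 7 vehicle-treated livers. These groups did not overlap, as for 1.67% of all genes, and the log2 fold change was 0.31 (95% CI 0.07 to 0.54, adjusted p = 0.671 from edgeR). For *Lyve1*, the log2 fold change was 0.29 (95% CI -0.24 to 0.83, adjusted p = 0.811 from edgeR), and for *Clec4g* it was 0.41 (95% CI -0.05 to 0.87, adjusted p = 0.771 from edgeR).

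In Lmna ADKO mice, 0 of 10 genes were called by edgeR or DESeq2 and 0 of 10 had an unadjusted p under 0.05, where edgeR called 0% and DESeq2 called 15 of all genes. Groups did not overlap for 0 of 10, against 0.0751% of all genes. *Lyve1* ranged from 14.9 to 31.0 CPM with vehicle and between 13.0 and 27.4 CPM with FGF21. The treatments differed by -0.15 on the log2 scale (95% CI -0.54 to 0.24, adjusted p = 0.863 from edgeR). *Cd34* ranged from 2.41 to 3.93 CPM with vehicle and from 0.629 to 4.11 CPM with FGF21. Of the 8 FGF21-treated libraries, 5 lay below all vehicle-treated ones and 1 above them, and the log2 fold change was -0.46 (95% CI -1.08 to 0.17, adjusted p = 0.750 from edgeR). The 5 platelet markers summed to 3.75 to 4.54 CPM with vehicle and 4.56 to 18.6 CPM with FGF21. Of these, 0 were called by edgeR or DESeq2, 4 had an unadjusted p under 0.05 in edgeR, and all 5 log2 fold changes were above 0 (median 1.01). For *Vwf* beside them, the log2 fold change was 0.15 (95% CI -0.25 to 0.54, adjusted p = 0.869 from edgeR), and the part of platelets in it was not tested.

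The genes did not vary as 1 group from library to library. Pearson's r was computed over 24 libraries that share depth, genotype, and the slope on gene length, and again on deviations from the group means, as descriptions without a test. *Clec4g* and *Fcgr2b* had the highest r of all pairs on levels, at 0.885. On deviations their r was 0.812, and 0.928 without the 3 libraries with a slope. *Lyve1* and *Cd34* had r = 0.693 and r = 0.734 on deviations. *Lyve1* and *Stab2*, which both bind hyaluronan, had r = -0.667 and r = -0.341 on deviations. *Kdr* and *Cdh5* had the highest r on deviations, at 0.867, and r = 0.473 without those 3 libraries, in which both genes were mostly low and *Clec4g* was high. In Lmna ADKO FGF21 library 7, *Kdr* was at 19.8 CPM, *Cdh5* at 15.0 CPM, and *Clec4g* at 99.3 CPM. In control FGF21 library 3, they were at 24.4, 16.1, and 125 CPM. The correlation with the slope itself was 0.647 for *Kdr*, 0.667 for *Cdh5*, -0.711 for *Clec4g*, and 0.00072 for *Lyve1*.

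**Figure D4:**
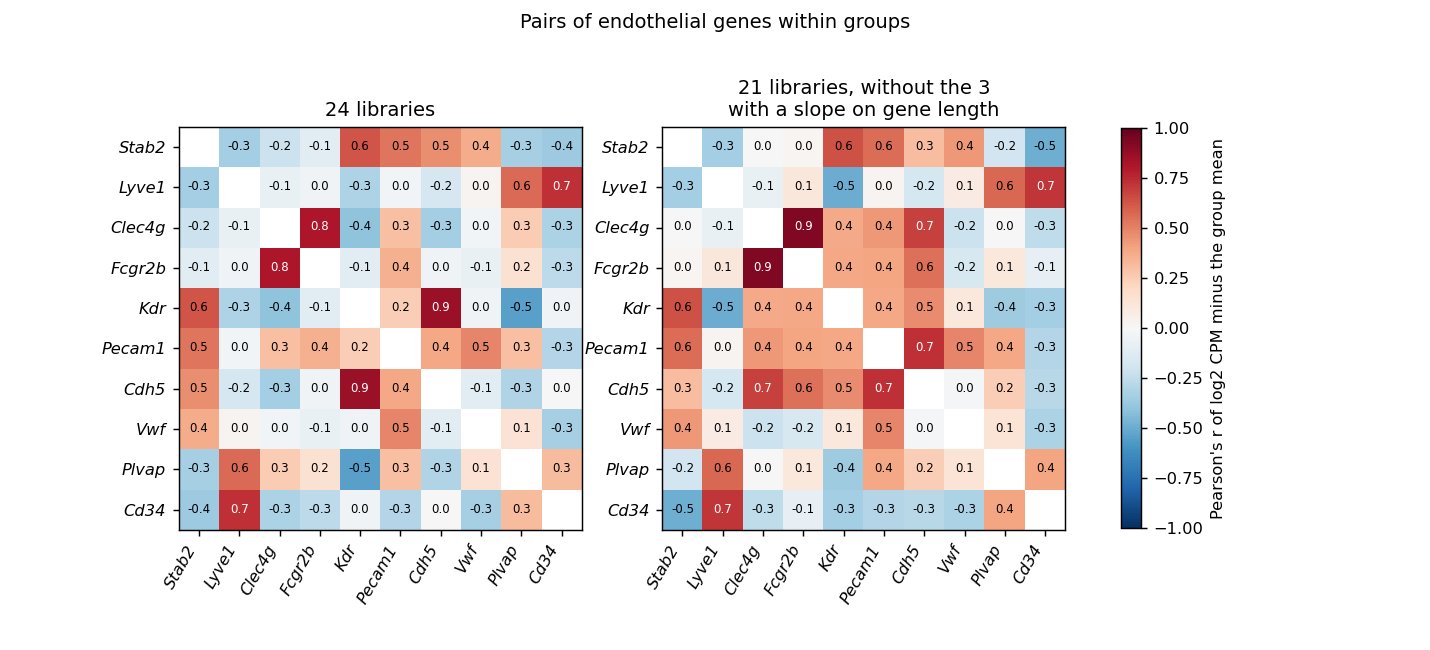
Pearson's r between the 10 genes for log2 CPM minus the group mean, over 24 libraries (left) and over 21 libraries without those with a slope on gene length (right). The pair *Clec4g* and *Fcgr2b* had 0.812 and 0.928, whereas *Kdr* and *Cdh5* had 0.867 and 0.473.

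Genes at 1 CPM or more on average (12492, by log2 CPM) were ranked by likeness. The 3 most like *Lyve1* over the 24 libraries were *Apoa4*, *Synj2*, and *Slc44a3*, each with r = 0.949. On deviations from the group means, which leave out the difference between genotypes, r was 0.785, 0.686, and 0.755. The values for the other genes are also over levels. Those most like *Fcgr2b* were *Clec4g* (0.885), *Dnase1l3* (0.852), and *Clta* (0.844), and those most like *Clec4g* were *Cyp4b1* (0.927), *Ifitm2* (0.914), and *Rnaset2b* (0.904). *Pecam1* was most like *Tie1* (0.823), *Sema3f* (0.772), and *Eml1* (0.737). *Vwf* was most like *Fabp4* (0.833), *Tfrc* (0.817), and *Bpgm* (0.737), and *Cd34* was most like *Emp1* (0.866), *Clcn5* (0.822), and *Sulf2* (0.821). The nearest were *Hnrnpa0* (0.822), *Poldip3* (0.818), and *Kmt2b* (0.805) for *Stab2*, *Topors* (0.905), *Zmym5* (0.884), and *Ksr1* (0.876) for *Kdr*, *Bsdc1* (0.903), *4931406P16Rik* (0.900), and *Sfmbt1* (0.884) for *Cdh5*, and *Tmsb10* (0.783), *Thop1* (0.777), and *Lgals3bp* (0.767) for *Plvap*. Without the 3 libraries with a slope, 11 of these 30 genes were kept.

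Other genes of the same vessels were counted by list in vehicle-treated mice, where 8.48% of all genes were called (5.12% higher and 3.36% lower). These lists are short and were chosen with earlier results known, so that their counts are descriptions and are not ranked. Of 11 other sinusoidal genes, 0 were called by edgeR or DESeq2 and 2 had an unadjusted p under 0.05, at a median log2 fold change of -0.12. The nuclease gene *Dnase1l3* averaged 82.2 ± 13.4 CPM (SD) over the 7 controls and 55.9 ± 7.14 CPM over the 6 Lmna ADKO livers. Its log2 fold change was -0.55 (adjusted p = 0.00334 from edgeR), under the fold limit in size. In FGF21-treated mice it was called, at -0.64 (adjusted p = 0.0130 from edgeR). Of 18 other pan-endothelial genes, 1 was called, the transcription factor gene *Sox7*, which fell (-0.62, adjusted p = 0.0292 from edgeR), and the median was 0.02. Of 8 Notch genes, 0 were called by edgeR or DESeq2 and 0 had an unadjusted p under 0.05, at a median of 0.10. Of 4 periportal sinusoidal genes, 0 were called by either tool and 1 had an unadjusted p under 0.05, at a median of 0.16.

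In a list of genes for VEGF, angiopoietin, and other secreted vascular signals, which do not all act on *Kdr*, 2 of 9 were called higher with vehicle. None was called lower, and 5.12% of all genes were called higher. *Angpt2*, an antagonist ligand of the TIE2 receptor, was at 0.841 ± 0.203 CPM (SD, n = 7) in controls and rose to 1.66 ± 0.340 CPM (SD, n = 6). Its log2 fold change was 0.97 (adjusted p = 0.00197 from edgeR), and among FGF21-treated mice 1.09 (adjusted p = 0.0260 from edgeR). The other, *Apln*, was at a mean under 0.2 CPM in all 4 groups and is named only as part of the count. *Vegfa*, the main ligand of *Kdr*, averaged 88.3 ± 17.4 and 62.8 ± 7.93 CPM, a difference of -0.49 on the log2 scale that was under the fold limit in size (adjusted p = 0.0216 from edgeR). Of 7 receptors, the VEGF coreceptor *Nrp1* was called lower in both comparisons. It was at -0.60 for vehicle (adjusted p = 0.00464 from edgeR) and -0.66 for FGF21 (adjusted p = 0.0219 from edgeR). Of all genes, 3.36% and 1.26% were called lower. *Angptl4*, for a secreted inhibitor of lipoprotein lipase, was called lower among FGF21-treated mice (-0.82, adjusted p = 0.0241 from edgeR), and its interaction was not called.

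Of 7 genes of nitric oxide and blood flow, *Thbd* and *Edn1* were called higher with vehicle, beside 5.12% of all genes. *Thbd*, the thrombin receptor thrombomodulin, was at 3.39 ± 0.746 CPM (SD) over controls and rose to 7.56 ± 1.23 CPM (log2 fold change 1.15, adjusted p = 0.000236 from edgeR), and was also the 1 called gene among 6 pericentral sinusoidal genes. Between FGF21-treated genotypes it was not called and had the other sign, at means of 6.00 and 5.32 CPM (-0.18, 95% CI -0.68 to 0.32, adjusted p = 0.729 from edgeR). Its interaction was -1.34 (95% CI -1.98 to -0.69, adjusted p = 0.412 from edgeR). With vehicle, 6 of 6 pericentral and 6 of 7 flow genes had a log2 fold change above 0, and with FGF21 0 of 6 and 1 of 7 did. Over all genes the medians were 0.0027 and 0.018. The 2 lists share *Thbd*, so that their counts are not separate. Between FGF21 and vehicle, 6 of 6 and 7 of 7 were above 0 in controls. Numbers had 4 digits in 3 of 3 FGF21-treated controls, against 1 of 7 with vehicle. In Lmna ADKO mice, 1 of 6 and 3 of 7 were above 0. In the interaction, 0 genes of either list were called by edgeR or DESeq2. An unadjusted p under 0.05 in edgeR was found for 3 of 6 pericentral and 4 of 7 flow genes. Of all 23972 genes, 1165 had such a p. Log2 differences of the interaction were above 0 for 0 of 6 and 0 of 7. *Edn1*, for the vasoconstrictor endothelin 1, was at a mean of 0.430 CPM in controls, under the level at which a gene is named by rule, and was named after its value was seen, as were *Apln* and *Sele*. With FGF21, *Klf2*, a flow-induced transcription factor gene, was called lower (-0.71, adjusted p = 0.0207 from edgeR). The pericentral gene *Cdh13* was also called lower (-0.81, adjusted p = 0.0268 from edgeR). These were 1 of 7 and 1 of 6, beside 1.26% of all genes called lower.

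Of large vessel and activation genes, 5 of 12 were called higher and 0 lower with vehicle, beside 5.12% of all genes called higher, at a median log2 fold change of 0.65. *Selp*, an adhesion molecule stored together with von Willebrand factor, rose from 1.75 ± 0.404 to 5.12 ± 2.04 CPM (1.55, adjusted p = 3.09e-05 from edgeR). *Vcam1*, an adhesion molecule for leukocytes, rose from 22.2 ± 5.77 to 37.1 ± 6.92 CPM (0.74, adjusted p = 0.00124 from edgeR). *Cd9*, a tetraspanin of many cell types, rose by 1.33 on the log2 scale and *Fabp4*, a fatty acid carrier of capillaries and macrophages, by 1.34 (adjusted p = 0.000699 and 0.000279 from edgeR). The fifth, *Sele*, was under 0.5 CPM in every vehicle-treated library. With FGF21, 2 of 12 were called, both higher, beside 1.61% of all genes called higher. These were *Cd9* (1.14, adjusted p = 0.0486 from edgeR) and *Fabp4* (1.24, adjusted p = 0.0188 from edgeR). The hepatocyte list, of 6 genes, had 1 called lower in each comparison, *Serpina1a*, with vehicle (-0.95) and with FGF21 (-0.68). This compares with 3.36% and 1.26% of all genes called lower. Of the 6, 3 had a log2 fold change above 0 with vehicle (median -0.15) and 2 with FGF21 (median -0.08).

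**Figure D5:**
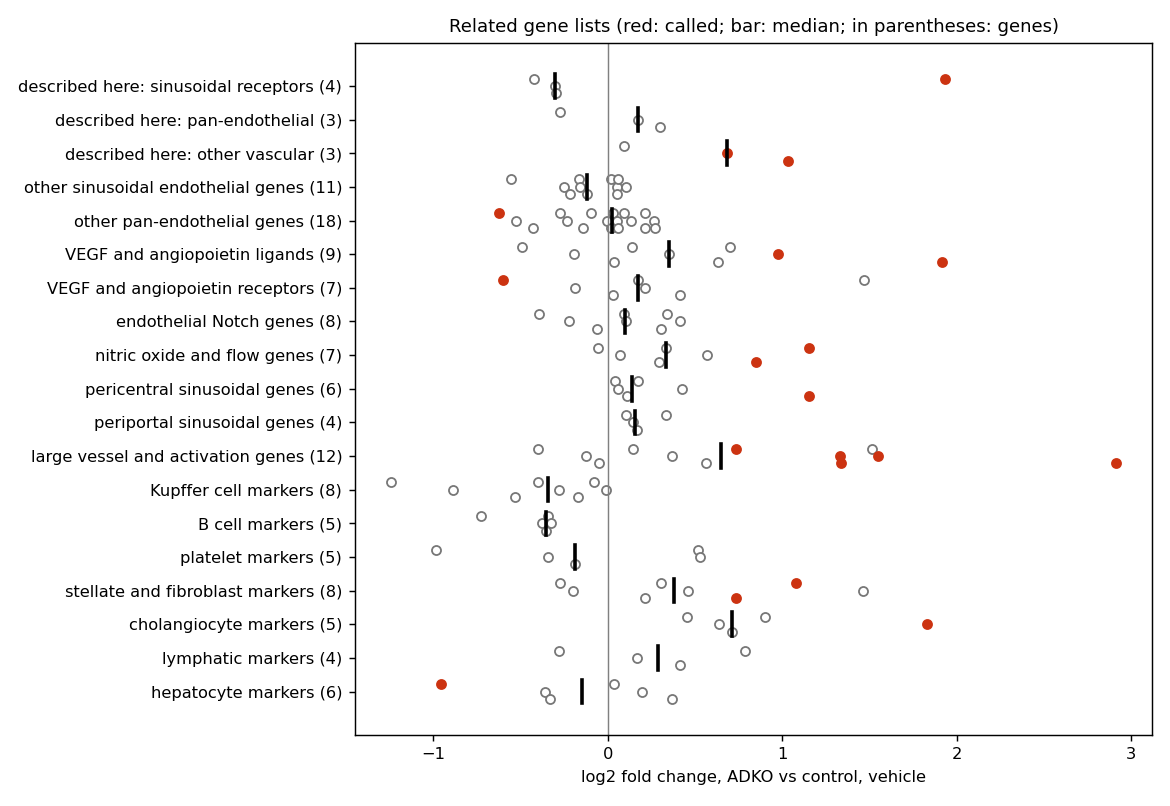
Log2 fold change of single genes (points, called genes in red) between vehicle-treated Lmna ADKO and control livers by gene list, with the median of each list as a bar. Large vessel and activation genes had 5 of 12 called higher, and the 8 Kupffer cell markers all lay under 0.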

How the data were processed

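Liver RNA of 24 libraries was analysed. The authors deposited counts of reads per gene without normalization, from polyA-selected, dUTP-stranded libraries. The submitters' processing notes name cutadapt 4.8, FastQC 0.11.8, STAR 2.7.8a, RSEM 1.3.3, and GRCm38. All 23972 genes held whole numbers, 0 columns lacked a sample, and how RSEM estimates became whole numbers is not given in the sources used here. Genes were located through GENCODE M21, which holds 23926 of them. Totals of 19863304 to 21510054 reads limit precision mainly for *Cd34*. Libraries are numbered within groups, and 67 pairs within groups differed by 14.1 to 196 times sampling noise (chi-square per degree of freedom). Labels give a number per library, which was taken as an animal number. If each library is 1 animal, p-values measure the spread between these animals.

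Tests used edgeR 4.0.16 under R 4.3.3 with TMM scaling (quasi-likelihood, robust, 1 fit of 4 groups over all genes, adjusted by Benjamini-Hochberg), and were tested on simulated data. Standard errors are the absolute log2 fold change over the square root of F. For the slope on gene length, genes needed an average log2 CPM of 2 or more. Alternatives were DESeq2 1.42.0, its size factors, filterByExpr, an adjusted p alone, only the groups compared, the number of digits of the animal number or the slope as a covariate, no libraries with a slope, the longest transcript, and leaving out each library. The 4-digit libraries alone were added later.

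The 10 genes and all lists were chosen with earlier results of these data known. By rule, the text names all 10 genes, up to 4 called genes per list and comparison whose average log2 CPM is 0 or more, and the 3 genes most like each of the 10. Names that matched 0 or 2 identifiers (*Clec4m*, *Ccl21a*) were not used here.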

Additional observations from a re-analysis of the deposited data

Results flagged for a closer look

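Values far from the rest of their group, by Dixon's test at the 95% level, were found in 4 of the 30 groups of 6 or more libraries tested (10 genes in 3 groups), where chance alone marks about 1 in 20. *Vwf* was at 22.6 CPM in Lmna ADKO vehicle library 2, and the other 5 were at 8.23 to 11.4 CPM. *Plvap* was at 51.4 CPM in Lmna ADKO vehicle library 4, and the other 5 were at 72.0 to 79.4 CPM. In Lmna ADKO FGF21 library 7, *Kdr* was at 19.8 CPM, against 31.8 to 48.5 CPM in the other 7, and *Cdh5* was at 15.0 CPM, against 27.6 to 38.2 CPM. This library has the steepest slope of log2 CPM on gene length of the 24, at -0.33.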

How the results depend on the processing

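Log2 fold changes of the 10 genes in the 4 comparisons and the interaction were recomputed 1080 times. Of these values, 1014 kept direction and side of the threshold, 11 lost the call, 5 gained it, and 50 changed sign. Of 79 values for called genes, 68 stayed called, 0 changed sign, and *Lyve1* stayed called in each (with adjusted p up to 0.000176 with vehicle and 0.0338 with FGF21). The cause of the other changes was not tested. No paired analysis was possible because the animal numbers of the 4 groups are not shared. Depth limits *Cd34* most, at 13 to 99 reads.

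With vehicle between genotypes, the 10 genes had 1 call with the number series as a covariate and 5 at the adjusted p alone, where all genes had 3623. With FGF21 between genotypes, they had 2 with DESeq2 or with the slope as a covariate, and 1 to 2 without single libraries. All genes had 344 calls with only the groups compared, 402 without the 3 libraries with a slope, 307 with 4-digit numbers, and 339 to 1149 without single libraries (1149 without Lmna ADKO FGF21 library 7, 416 without control FGF21 library 2, 339 without control FGF21 library 3). For FGF21 in controls, they had 38 with DESeq2, 0 with the number series, and 3 to 26 without single libraries (3 without control FGF21 library 2). For FGF21 in Lmna ADKO mice, they had 15 with DESeq2, 2 with 4-digit numbers, and 0 to 61 without single libraries (61 without Lmna ADKO FGF21 library 3). For the interaction, they had 11 with DESeq2, 2 with its size factors or filterByExpr, 0 with the number series, 3 with the slope, 5 without the 3 libraries, and 0 to 5 without single libraries.

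Signs changed only for genes that were not called. Between genotypes with FGF21, *Plvap* was at -0.0041 (DESeq2) and -0.0042 (its size factors), and *Cd34* at -0.10 without the 3 libraries with a slope. For FGF21 in controls, *Cdh5* was at 0.11 with the number series, 0.016 with the slope, and 0.16 without the 3 libraries, where *Plvap* was at -0.059. For FGF21 in Lmna ADKO mice, *Cdh5* was at 0.023 with the slope and 0.066 without the 3 libraries, and with 4-digit numbers *Vwf* was at -0.063 and *Plvap* at 0.031. In the interaction with the number series, *Stab2* was at -0.026, *Kdr* at -0.018, and *Cdh5* at -0.22, and without the 3 libraries *Stab2* was at -0.029, *Fcgr2b* at 0.0025, *Kdr* at -0.013, and *Cdh5* at -0.089.

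Leaving out single libraries gave ranges that crossed 0. Between genotypes with FGF21 these were -0.40 to 0.11 for *Kdr*, -0.030 to 0.39 for *Cdh5*, -0.063 to 0.10 for *Plvap*, and -0.11 to 0.91 for *Cd34*. For FGF21 in controls they were -0.030 to 0.15 for *Stab2*, -0.18 to 0.32 for *Kdr*, -0.25 to 0.17 for *Cdh5*, -0.040 to 0.14 for *Plvap*, and -0.34 to 0.69 for *Cd34*. For FGF21 in Lmna ADKO mice they were -0.087 to 0.071 for *Cdh5* and -0.11 to 0.014 for *Plvap*. In the interaction they were -0.040 to 0.13 for *Stab2*, -0.43 to 0.00021 for *Clec4g*, -0.26 to 0.053 for *Fcgr2b*, -0.11 to 0.39 for *Kdr*, -0.19 to 0.22 for *Cdh5*, -0.24 to 0.19 for *Vwf*, and -0.17 to 0.015 for *Plvap*. Of the 30 genes most like the 10, 11 were kept without the 3 libraries.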
